A study of Mus musculus with 11 samples.

Results

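The comparison set the array of HRAS_MEL, a line named for the RAS isoform HRAS, against the array of D6_MEL, a line with no RAS name. These were 2 of the 11 mouse arrays of the study, chosen by their labels, and 7078 of the 7114 named genes on the array had a value on both. MEL was read as melanocyte, the pigment cell of the skin, from the study's title, which asks about the oncogenic potential of RAS isoforms. The labels give the lines different cell type codes. They do not say how the HRAS line was made, whether it carries an introduced gene, or whether either line is 1 clone. On each array, total RNA extracted with Trizol was labelled with Cy3 and a shared mouse embryo reference RNA with Cy5, and the dyes were not swapped. Each line had 1 array and no replicate, so differences are given as values with no error and no test, and differences between the lines cannot be told apart from differences between 2 RNA samples.

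HRAS is a small GTPase that switches between an active and an inactive form and, when active, starts the MAP kinase and PI3 kinase pathways. Melanocytes descend from the neural crest, an embryonic cell population that also gives rise to glia and to neurons outside the brain. Cells of this origin carry receptors and cytoskeletal proteins of that lineage, while the extracellular matrix, the mesh of collagens, proteoglycans and glycoproteins around cells, is made largely by fibroblasts. Levels are given here as log2 ratios of a line's own RNA over the embryo reference, with the median of each array at 0, and differences as HRAS_MEL minus D6_MEL on the same log2 scale. A difference of 1 is 2-fold.

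The direction of the deposited ratio is not stated, and the sign was turned, which is likely but not given: the deposited values appear to run reference over own RNA. The order of words in the sample titles runs the other way, and if it holds, every sign below turns. A check chosen after seeing the data used transcripts abundant in embryos. Igf2, H19 and the embryonic globins Hba-x and Hbb-y lay below the array median on all 11 arrays in the direction taken. Their highest levels on any array were -3.23, -3.42, -0.26 and -1.14, in that order. The base of the logarithm was taken as 2.

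The labels could be checked only in part. No probe was named for the pigment enzymes Tyr, Dct and Tyrp1, the melanosome proteins Pmel and Mlana, or the factors Sox10 and Mitf that define melanocytes, nor for Hras. Nras, a RAS isoform on the array, stood at -0.35 in HRAS_MEL and 0.18 in D6_MEL, and its 3 probes gave differences of 0.07, -0.65 and -1.0. Rras2, a related RAS GTPase, stood at 1.97 in HRAS_MEL, the highest of the 11 arrays, and at 0.42 in D6_MEL. Both of its probes carried that difference, at 1.56 and 1.54. Of 27 RAS proteins, regulators and effectors measured, Rras2 was the 1 gene at least 2-fold higher and Rap2b, at -1.76, the 1 gene at least 2-fold lower. Braf, the kinase activated by RAS, differed by 0.25.

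In all, 370 genes were at least 2-fold higher in HRAS_MEL than in D6_MEL, 5.23% of the genes measured, and 418 were at least 2-fold lower, 5.91%. These shares are the background for each gene group below. The median difference over all genes was -0.01 and the SD was 0.73. Differences of at least 4-fold were reached by 97 genes upward and 68 downward. The spread between probes of 1 gene describes how far probes disagree on these arrays and leaves out any error they share. It had a median SD of 0.29 and a root mean square SD of 0.51 over the 1798 genes with several probes. Of these genes, 60 had a mean at least 2-fold higher and 27 of the 60 had every probe past 2-fold; 86 had a mean at least 2-fold lower, and 29 of the 86 had every probe past it. The other 5280 genes rest on 1 probe each.

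**Figure D1:**
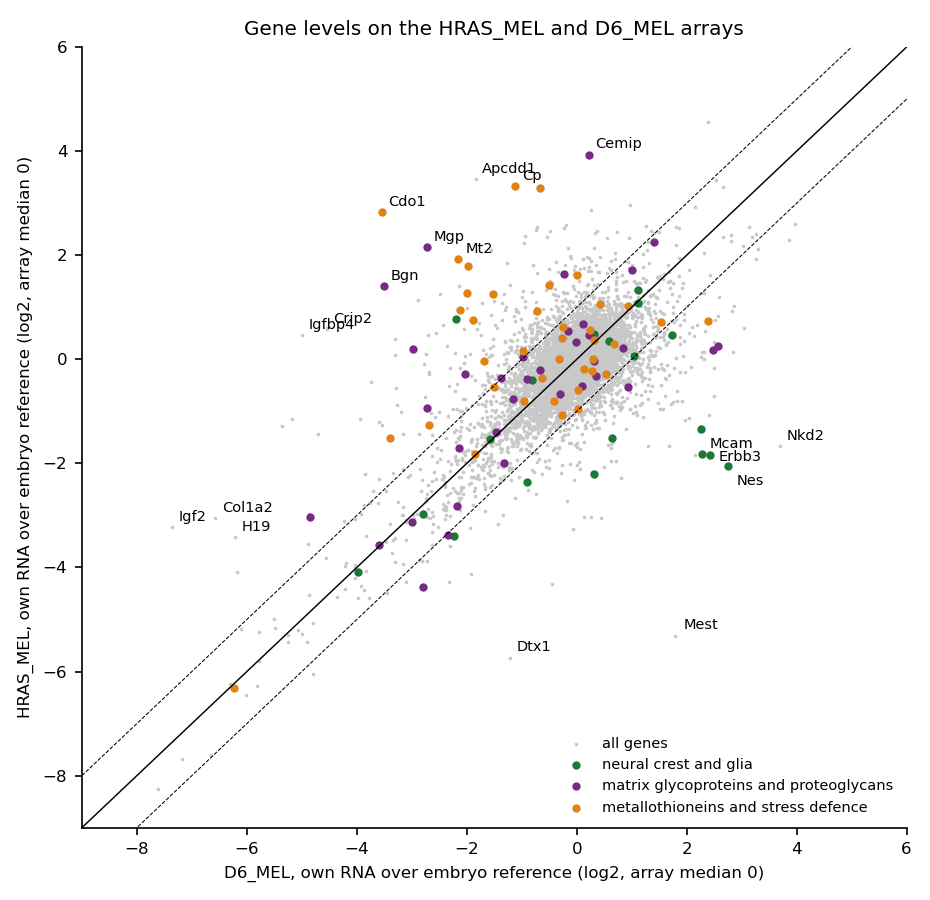
Each point is a gene, with its level on the HRAS_MEL array on the y axis and on the D6_MEL array on the x axis, both as log2 of own RNA over embryo reference with the array median at 0. Coloured points are members of 3 gene lists, the solid line marks equal levels and the dashed lines mark a 2-fold difference. Nes, Erbb3 and Mcam lie far below the lower dashed line, while Cdo1, Bgn, Mgp and Mt2 lie far above the upper one.

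Because HRAS_MEL is compared with a single array, the array closest to D6_MEL over all genes was used as another comparison. That array is labelled Heart, a label its marker genes go against, and it is called the array labelled Heart throughout. HRAS_MEL against it gave 384 genes at least 2-fold higher and 432 at least 2-fold lower, 5.43% and 6.1% of 7077 genes. Both comparisons use the HRAS_MEL array, and the array labelled Heart was chosen for its closeness to D6_MEL. Similar counts were therefore likely from the start, and the comparisons are not independent. Among the 25 highest and 25 lowest genes against D6_MEL, only Lmbr1 was within 2-fold of the array labelled Heart. Lmbr1 stood at -0.44 in HRAS_MEL and -3.74 in D6_MEL, and its next lowest level on any array was -0.85. Tomm7, a subunit of the mitochondrial import pore, stood likewise at -2.0 in D6_MEL with the other 10 arrays between 0.27 and 1.18, so these 2 differences rest on the D6_MEL array.

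Of the 19 members of the neural crest and glia list that were measured, 9 were at least 2-fold lower, 1 was at least 2-fold higher and 9 were within 2-fold, with a median difference of -0.99 against -0.01 over all genes. Against the array labelled Heart, 8 were lower and 1 higher and the median was -0.23. In bulk RNA, fewer cells of a type and less RNA per cell cannot be told apart. The members far apart were receptors, adhesion proteins and cytoskeletal genes. Nes, which encodes the intermediate filament nestin of neural progenitors, stood at -2.05 in HRAS_MEL and 2.76 in D6_MEL, a difference of -4.81. NRAS_MEL, at 2.89, and the array labelled Heart, at 2.22, were also high, while the other 7 arrays lay between -3.39 and 0.41.

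Erbb3, the neuregulin receptor of melanocyte precursors and Schwann cells, stood at -1.83 in HRAS_MEL, the lowest of the 11 arrays, and at 2.43 in D6_MEL. Mcam, the melanoma cell adhesion molecule, stood at -1.82 in HRAS_MEL, again the lowest array, and at 2.27 in D6_MEL, the highest. Gfra1, a co-receptor for the growth factor GDNF, stood at -1.34 in HRAS_MEL and 2.27 in D6_MEL. All 3 differences, of -4.26, -4.09 and -3.60, rest on 1 probe each. NRAS_MEL lay between the lines for Mcam, at -0.05, and Gfra1, at 0.72, but near D6_MEL for Erbb3, at 2.02.

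Further members with smaller differences were the semaphorin receptor Nrp1 at -2.53, the guidance ligand Sema3c at -2.16, the neuronal tubulin Tubb3 at -1.46, N-cadherin (Cdh2) at -1.26 and the growth cone protein Gap43 at -1.16. Sema3c and Cdh2 each had 2 probes, which differed by -2.45 and -1.86 for Sema3c and by -0.76 and -1.77 for Cdh2. Sema3f, a repulsive semaphorin, went the other way, at 0.77 in HRAS_MEL and -2.20 in D6_MEL. Members within 2-fold included the endothelin receptor Ednrb at -0.19, vimentin (Vim) at -0.04, myelin basic protein (Mbp) at 0.17 and the inhibitors of differentiation Id1, Id2 and Id3, at -0.24, 0.04 and 0.21. The list was therefore not lower as a whole.

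Melanosome genes did not show the same pattern. Of 16 pigment cell genes measured, 15 were within 2-fold and the median difference was -0.11. Rab38, a GTPase that carries pigment enzymes to melanosomes, stood at -0.99 in HRAS_MEL and 0.06 in D6_MEL, a difference of -1.05, while its partner Rab32 differed by 0.93. Mlph, which links melanosomes to their motor, was high in both lines, at 2.36 in HRAS_MEL and 3.18 in D6_MEL. Kit, the receptor for stem cell factor, stood at -1.93 in HRAS_MEL and -1.09 in D6_MEL, with probe differences of -0.52 and -1.15.

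Other genes with low differences belonged to no single list. Mest, an imprinted gene active in embryonic mesoderm, had the lowest difference, -7.09, from -5.31 in HRAS_MEL and 1.79 in D6_MEL. Its level in HRAS_MEL lay within the -6.33 to -3.69 of the 7 arrays other than NRAS_MEL, D6_MEL and the array labelled Heart, which stood at -0.26, 1.79 and 0.92. Nkd2, an inhibitor of WNT signalling, was high on the same 3 arrays. It stood at -1.67 in HRAS_MEL and 3.70 in D6_MEL, with NRAS_MEL at 3.26, the array labelled Heart at 3.82 and the other 7 between -1.92 and -0.03. Slc2a3, a glucose transporter of neurons, stood at -1.85 in HRAS_MEL and 2.15 in D6_MEL. So D6_MEL, rather than HRAS_MEL, lay apart from the 7 other arrays for Mest, Nkd2 and Slc2a3.

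For 2 of the lowest genes it was HRAS_MEL that stood alone. Dtx1, a ubiquitin ligase of the NOTCH pathway, stood at -5.73 in HRAS_MEL, while all 10 other arrays lay between -1.70 and -0.92, D6_MEL among them at -1.21. Stx16, a syntaxin of the trans-Golgi network, stood at -4.32 in HRAS_MEL and between -0.90 and -0.04 on the other 10 arrays. Each had 1 probe, so a fault of a single spot cannot be told apart from a low transcript level. Pou5f1, a pluripotency factor with many processed copies in the genome, stood at -3.26 in HRAS_MEL and -0.06 in D6_MEL, with the 7 other arrays that gave a value between -1.54 and 0.12.

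**Figure D2:**
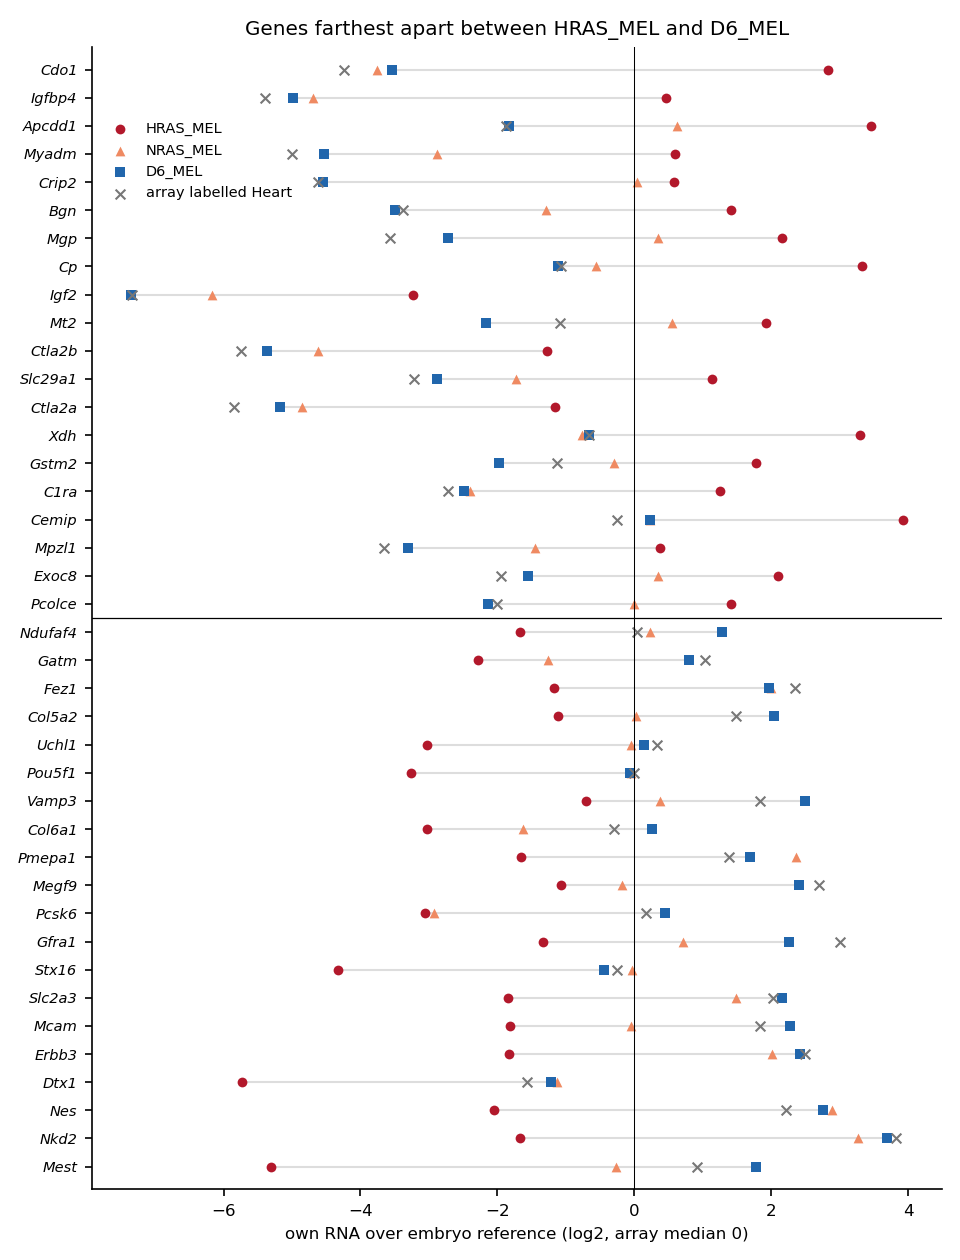
Levels of the 20 genes highest (above the line) and the 20 lowest (below the line) in HRAS_MEL relative to D6_MEL, as log2 of own RNA over embryo reference with the array median at 0 on the x axis. Circles are HRAS_MEL, triangles NRAS_MEL, squares D6_MEL and crosses the array labelled Heart, 1 array each. D6_MEL and the array labelled Heart lie close together for most genes, and NRAS_MEL lies near D6_MEL for Cdo1, Igfbp4, Nes and Nkd2 but near HRAS_MEL for Crip2 and Pcsk6.

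Matrix genes differed in both directions. Of 35 matrix glycoproteins and proteoglycans measured, 10 were at least 2-fold higher and 5 at least 2-fold lower, with a median of 0.39. Biglycan (Bgn), a small leucine-rich proteoglycan, stood at 1.41 in HRAS_MEL, the highest of the 11 arrays, and at -3.50 in D6_MEL. Matrix Gla protein (Mgp), an inhibitor of calcification, stood at 2.16 in HRAS_MEL and -2.72 in D6_MEL. The hyaluronan-degrading protein Cemip stood at 3.93 in HRAS_MEL and 0.22 in D6_MEL, and VA_475, at 4.24, was the one array above HRAS_MEL. These are single-probe genes, with differences of 4.91, 4.87 and 3.71.

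Sparcl1, an anti-adhesive matrix protein, was higher by 3.19, extracellular matrix protein 1 (Ecm1) by 1.88, the TGF-beta induced protein Tgfbi by 1.78 and fibronectin (Fn1) by 1.75. Decorin (Dcn), a proteoglycan related to biglycan, had a mean difference of 1.81 from 2 probes that stood apart, at 0.64 and 2.98. The 5 lower members included the cell surface proteoglycans glypican 1 (Gpc1) at -2.31 and glypican 3 (Gpc3) at -1.59, and the basement membrane genes agrin (Agrn) at -2.30 and nidogen 1 (Nid1) at -1.45. With only members that had several probes of one sign, the median of this list was -0.48. That subset is smaller than the 35 and leaves out every single-probe gene, Bgn, Mgp and Cemip among them.

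Collagen genes were more often lower than higher. Of 14 measured, 6 were at least 2-fold lower and 3 at least 2-fold higher, with a median of -0.27. Col6a1, a chain of the microfibrillar collagen VI, stood at -3.03 in HRAS_MEL and 0.26 in D6_MEL, the highest of the 11 arrays. Col5a2, a chain of a collagen that regulates fibril size, stood at -1.12 in HRAS_MEL and 2.04 in D6_MEL, again the highest array. Col4a1 and Col4a2, the paired chains of the basement membrane collagen IV, differed by -1.55 and -2.31. No protein-coding gene lies between them in the RefSeq table of assembly GRCm38.p6, and both probes of Col4a1 gave close values, -1.56 and -1.53. Col14a1 differed by -2.57 and Col3a1, over 4 probes, by -1.05.

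The 3 higher collagens were Col1a2, Col4a5 and Col12a1. Col1a2, a chain of the fibrillar collagen I, stood at -3.05 in HRAS_MEL and -6.57 in D6_MEL, and its 2 probes gave 3.58 and 3.47. Its partner chain Col1a1 differed by -0.01. NRAS_MEL, at -6.68, was as low as D6_MEL for Col1a2, while the fibroblast line 3T3, at -0.36, was the highest array. Col4a5 was higher by 1.82 and Col12a1, a collagen on the surface of fibrils, by 1.16. Thus 1 chain of collagen I was higher and 2 chains of collagen IV were lower, with another chain of collagen IV higher.

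Enzymes that process the matrix and their inhibitors were as mixed, with 8 of 40 at least 2-fold higher, 7 at least 2-fold lower and a median of -0.11. Pcolce, which enhances the cleavage of procollagen, stood at 1.42 in HRAS_MEL, the highest array, and -2.14 in D6_MEL. Timp3, an inhibitor of metalloproteinases bound to the matrix, was higher by 1.76, with probes at 1.34 and 2.18. Adamts1, a protease of proteoglycans, stood at 4.57 in HRAS_MEL and 2.39 in D6_MEL. The cysteine protease inhibitor genes Ctla2a and Ctla2b were higher by 4.02 and 4.08. They are near-identical genes on chromosome 13, with 1 protein-coding gene between them. Their cDNA probes may share signal, so their separate values are uncertain. Lower were the proprotein convertase Pcsk6 at -3.51, the collagen prolyl hydroxylase subunit P4ha2 at -2.27, the sheddase Adam10 at -2.21 and tissue plasminogen activator (Plat) at -1.36.

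Fibroblast markers did not move together either. Of 16 measured, 5 were at least 2-fold higher and 4 at least 2-fold lower, with a median of -0.03. The higher ones were Pcolce, Col1a2, Pdgfrb at 1.92, Dcn and Fn1, and the lower ones were Col6a1, Col5a2, Col3a1 and Serpinf1 at -1.32. Pdgfra, a receptor that marks fibroblasts, differed by 0.01 and Lum, the proteoglycan lumican, by -0.12. Keratinocyte and epithelial markers had 2 higher and 3 lower of 24, macrophage markers 2 higher and 1 lower of 9, endothelial markers 0 either way of 5, and muscle markers 0 either way of 2. The part of other cells in the matrix differences was not tested.

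Integrins and adhesion receptors had 3 of 27 higher and 4 lower, a median of -0.17. Nectin1, an adhesion molecule of the immunoglobulin family, was higher by 2.44, the laminin-binding integrin subunits Itga3 and Itgb4 by 1.52 and 1.34. Itgb5, a subunit of a vitronectin receptor, was lower at -1.27, as was the hyaluronan receptor Cd44, at -1.29 over probes of -0.84 and -1.74, beside Mcam and Cdh2.

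**Figure D3:**
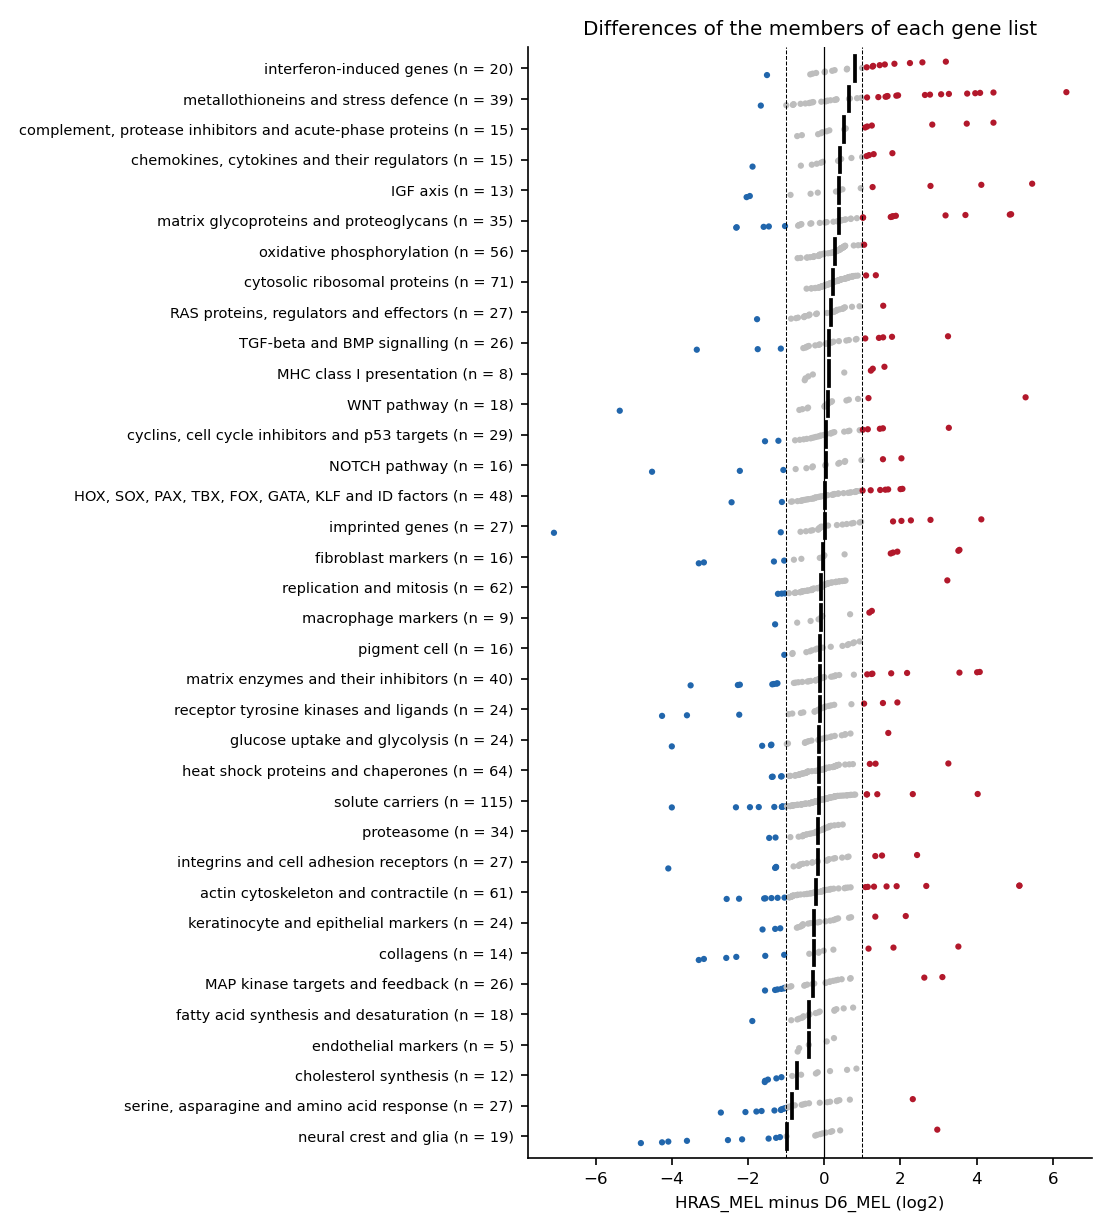
Differences between HRAS_MEL and D6_MEL for the members of each gene list with at least 5 members measured, on a log2 scale on the x axis, with 1 row a list, ordered by median. Each point is a gene, red where at least 2-fold higher, blue where at least 2-fold lower and grey between, and the black bar is the list's median. Interferon-induced genes head the order at 0.80 and neural crest and glia genes end it at -0.99; most lists have medians close to 0 with single genes far out on both sides.

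Among secreted factors, the insulin-like growth factor (IGF) axis had 13 members measured, of which 4 were at least 2-fold higher and 2 at least 2-fold lower, with a median of 0.40. Igfbp4, which binds and restrains IGFs, stood at 0.47 in HRAS_MEL and -4.99 in D6_MEL. NRAS_MEL, at -4.70, was close to D6_MEL. Igf2, the fetal growth factor, stood at -3.23 in HRAS_MEL and -7.36 in D6_MEL, with probes at 3.83 and 4.42. H19, the non-coding RNA beside Igf2, was higher by 2.79 over 7 probes, from 1.57 to 3.88. The receptor gene Igf1r was higher by 1.27, while the binding proteins Igfbp3 and Igfbp5 were lower, at -2.04 and -1.95.

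Igf2 and H19 are imprinted neighbours on chromosome 7, with no protein-coding gene between them in the same RefSeq table. Both were highest on the HRAS_MEL array of all 11 arrays, but both stayed below the embryo reference there. Among 27 imprinted genes, 5 were at least 2-fold higher and 2 at least 2-fold lower, with a median of 0.01. Plagl1, a zinc finger factor of an imprinted growth network, stood at -1.27 in HRAS_MEL and -3.55 in D6_MEL. Dlk1, a NOTCH-like ligand of precursor cells, stood at -0.73 in HRAS_MEL and -2.76 in D6_MEL. Decorin was the other higher member. The lower pair, Mest and Copg2, are neighbours on chromosome 6, but their differences, -7.09 and -1.14, are far apart in size. Cdkn1c, Peg3, Ndn and Grb10 were within 2-fold, at 0.93, 0.72, 0.77 and -0.36.

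Complement and acute-phase genes were higher or within 2-fold, with 6 of 15 at least 2-fold higher, 0 lower and a median of 0.53. The list also held B2m, the light chain of MHC class I, whose difference of 0.53 was the median. Ceruloplasmin (Cp), a copper-carrying oxidase of plasma, stood at 3.33 in HRAS_MEL and -1.11 in D6_MEL, the lowest of the 11 arrays. The complement protease gene C1ra stood at 1.25 in HRAS_MEL and -2.49 in D6_MEL, and clusterin (Clu), a secreted chaperone, stood at 0.10 in HRAS_MEL and -2.74 in D6_MEL. C1qc, C1 inhibitor (Serping1) and the lipopolysaccharide-binding protein Lbp were higher by 1.25, 1.13 and 1.08. The complement protease gene C1s1, not in the list, was higher by 2.44. C1qc is a macrophage gene, and its partner chains C1qa and C1qb differed by -0.71 and -0.05.

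Other secreted signals included Bmp4, a bone morphogenetic protein, at 1.24 in HRAS_MEL and -2.01 in D6_MEL. Among 26 TGF-beta and BMP genes, 5 were higher and 3 lower, among them Tgfb2 at -1.74 and the pathway inhibitor Pmepa1 at -3.34. Pmepa1 stood at -1.66 in HRAS_MEL, the lowest of the 11 arrays, and 1.69 in D6_MEL. Of 15 chemokine and cytokine genes, 4 were higher and 1 lower, with a median of 0.40. Socs3, a feedback inhibitor of cytokine receptors, was higher by 1.79, Nfkbia, the inhibitor of NF-kappa-B, by 1.30, Cish by 1.18 and Il18 by 1.11, and the chemokine Cxcl12 was lower at -1.88. Apcdd1, a membrane inhibitor of WNT signalling, stood at 3.46 in HRAS_MEL and -1.83 in D6_MEL, and no array other than HRAS_MEL exceeded 0.62. It was 1 of 2 higher members of the 18 WNT genes, with the WNT receptor Ryk at 1.16, while Nkd2 was the 1 lower member.

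Among receptor tyrosine kinases and their ligands, 3 of 24 were higher and 3 lower. The platelet-derived growth factor receptor Pdgfrb stood at 1.46 in HRAS_MEL and -0.46 in D6_MEL, and its ligand gene Pdgfa at -0.15 in HRAS_MEL and 2.08 in D6_MEL. Fgfr1, a fibroblast growth factor receptor, was higher by 1.54, and the ephrin Efna5 by 1.05. Erbb3 and Gfra1 were the other lower members.

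Transcripts known to follow MAP kinase signalling went both ways. Of 26 measured, 2 were at least 2-fold higher and 6 at least 2-fold lower, and the list's median was -0.28. When the array labelled Heart took the place of D6_MEL, 2 were higher and 7 lower, although the list's median moved to 0.02. Errfi1, a feedback inhibitor of the EGF receptor, stood at 1.84 in HRAS_MEL and -1.26 in D6_MEL, with probes at 3.66 and 2.54. Egr1, an early response transcription factor, stood at 1.12 in HRAS_MEL and -1.51 in D6_MEL. Cyclin D1 (Ccnd1), which drives entry into the cell cycle, was above the array median in both lines, at 2.30 in HRAS_MEL and 3.85 in D6_MEL. The urokinase receptor Plaur was lower at -1.23, Atf3 at -1.13, the ETS factor Etv5 at -1.05 and the early response gene Ier3 at -1.04. Fosl1, Myc and Spry4 were within 2-fold, at 0.15, 0.31 and -0.52.

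Interferon-induced genes had the highest median of the lists with at least 5 members, 0.80 over 20 genes, with 9 at least 2-fold higher and 1 at least 2-fold lower. Against the array labelled Heart it was 0.79. Bst2, or tetherin, which holds budding viruses at the cell surface, stood at 2.24 in HRAS_MEL and -0.95 in D6_MEL. Irf9, the DNA-binding subunit of the factor that interferon activates, stood at 0.95 in HRAS_MEL and -1.30 in D6_MEL, and its partner Stat2 was higher by 1.29. The antiviral membrane genes Ifitm3 and Ifitm2 were higher by 2.58 and 1.59, although their sequences are alike and probes may share signal. The immunity-related GTPases Tgtp1 and Igtp were higher by 1.84 and 1.46. Irf3, a sensor-activated factor that acts before interferon is made, was lower, at -1.61 in HRAS_MEL and -0.11 in D6_MEL. Oas1a and Ddx58 differed by -0.37 and -0.30, so the list did not move as a whole.

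Promoters of these genes are shown because interferon acts through a known element in them. RefSeq promoters of build GRCm38.p6, 250 bases before to 50 after the start, were found for 18 of the 20 members and searched on both strands for 2 copies of GAAA parted by any 2 bases, the core of the interferon-stimulated response element. The motif was in 9 of 18, against 3.58% of the 5720 measured genes with a promoter. Of the members at least 2-fold higher, 6 of 9 held it, and of those within 2-fold, 3 of 8. A match is a description of the letters and not a binding site. The windows of the 6 are given below, with the matches in capitals; the match in Stat2 is on the other strand and reads as the reverse complement, with TTTC for GAAA.
Bst2 (chr8:71537568-71537627, minus strand): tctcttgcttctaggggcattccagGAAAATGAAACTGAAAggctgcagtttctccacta
Ifitm3 (chr7:141010708-141010767, minus strand): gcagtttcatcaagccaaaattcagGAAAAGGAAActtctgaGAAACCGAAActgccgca
Tgtp1 (chr11:48992289-48992348, minus strand): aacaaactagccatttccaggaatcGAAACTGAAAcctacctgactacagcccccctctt
Ifitm2 (chr7:140955973-140956032, minus strand): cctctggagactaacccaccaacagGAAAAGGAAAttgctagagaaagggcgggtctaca
Igtp (chr11:58199497-58199556, plus strand): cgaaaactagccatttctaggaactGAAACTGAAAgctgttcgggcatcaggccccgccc
Stat2 (chr10:128270251-128270310, plus strand): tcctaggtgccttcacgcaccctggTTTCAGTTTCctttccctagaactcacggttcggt
In Bst2 the 2 matches run into each other, and Ifitm3 has 2 separate matches.

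Antigen presentation by MHC class I, which interferon also raises, had 3 of 8 members at least 2-fold higher and 0 lower, with a median of 0.12. The peptide loading genes Tapbp and Tap2 were higher by 1.58 and 1.28 and the proteasome activator Psme1 by 1.23, over probes of 1.31 and 1.14. B2m, the shared light chain, was higher by 0.53, within 2-fold.

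The list of metallothioneins and stress defence genes held the largest count of higher genes of any list, with 16 of 39 at least 2-fold higher and 1 lower, and a median of 0.65. By share, at 41%, it came after the 3 haemoglobin chains, at 66.7%, and the interferon-induced genes, at 45%. Ceruloplasmin, described above, is a member of this list too. Cdo1, cysteine dioxygenase, which breaks down cysteine, had the highest difference of all genes, 6.36. It stood at 2.82 in HRAS_MEL and -3.53 in D6_MEL, and NRAS_MEL, 3T3, VA_MEF and VA_475 lay between -4.09 and -3.04. The array labelled Lung, at 4.37, was above HRAS_MEL. The arrays labelled Liver, Kidney, Melan A and Heart stood at 0.92, 0.24, -2.18 and -4.24. The metal-binding metallothioneins Mt2 and Mt1, neighbours on chromosome 8, were higher by 4.09 and 2.65, and Mt2 in HRAS_MEL, at 1.93, was the highest of the 11 arrays. Xanthine dehydrogenase (Xdh), the last enzyme of purine breakdown, stood at 3.30 in HRAS_MEL, also the highest array, and at -0.67 in D6_MEL.

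Glutathione transferases, which couple glutathione to reactive compounds, were prominent in that list. Gstm2, Gstm1, Gsta4 and Gstm6 were higher by 3.75, 3.27, 3.07 and 2.78, and Gstm7 by 1.13. The Gstm genes are close copies in a cluster on chromosome 3, and cDNA probes may share their signal, so they are not separate observations. Of the 3 probes of Gstm1, 2 gave 4.97 and 4.02 and the other 0.83. Gclc, the first enzyme of glutathione synthesis, was higher by 1.94, the membrane transferases Mgst1 and Mgst3 by 1.89 and 1.65, and the ferritin heavy chain Fth1 by 1.61. Gstp1, a transferase of another class, was lower, at 0.73 in HRAS_MEL and 2.39 in D6_MEL.

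Genes of amino acid supply were apart more often downward than upward. Of 27 serine, asparagine and amino acid response genes, 10 were at least 2-fold lower and 1 at least 2-fold higher, with a median of -0.84. It moved to -0.53 against the array labelled Heart and to -0.19 over members with several probes of one sign. Asparagine synthetase (Asns) stood at 0.14 in HRAS_MEL and 2.85 in D6_MEL. The tRNA synthetases Aars, Gars and Nars were lower at -2.07, -1.31 and -1.0, the mitochondrial folate enzyme Mthfd2 at -1.78 and the serine enzyme Psph at -1.14. Gpt2, which makes alanine from pyruvate, was lower at -1.64 with 3 close probes, -1.80, -1.63 and -1.50. Atf4, the factor that activates these genes when amino acids are short, was lower at -1.09, and its targets Atf3 and Trib3 at -1.13 and -1.04. Slc38a1, a glutamine transporter, was the higher member, at 0.12 in HRAS_MEL and -2.21 in D6_MEL, with probes at 2.06 and 2.59.

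Promoters of this list are shown because ATF4 acts through a composite element. The motif TGATGNAA, chosen after seeing the data, was searched on both strands in the 22 members with a RefSeq promoter. It was in 7 of 22, against 2.97% of the 5720 measured genes, in 5 of the 9 members at least 2-fold lower with a promoter and in 2 of the 13 within 2-fold. The windows of the 5 follow, with the match in capitals, which reads as the reverse complement where it lies on the other strand.
Asns (chr6:7693200-7693257, minus strand): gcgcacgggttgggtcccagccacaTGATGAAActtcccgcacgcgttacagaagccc
Aars (chr8:111033705-111033762, plus strand): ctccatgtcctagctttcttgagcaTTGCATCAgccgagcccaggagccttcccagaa
Gars (chr6:55037946-55038003, plus strand): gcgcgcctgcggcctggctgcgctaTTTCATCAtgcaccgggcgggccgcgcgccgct
Atf3 (chr1:191183411-191183468, minus strand): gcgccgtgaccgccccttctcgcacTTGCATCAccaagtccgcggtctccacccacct
Trib3 (chr2:152344014-152344071, minus strand): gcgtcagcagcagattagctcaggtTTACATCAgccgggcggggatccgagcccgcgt
The match shown for Asns is read on the gene's own strand, and those shown for the other 4 on the opposite strand. Aars has 2 matches in its promoter, of which 1 lies in the window.

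Among 12 cholesterol synthesis genes, 5 were at least 2-fold lower, 0 higher and 7 within 2-fold, with a median of -0.72, or -1.34 against the array labelled Heart. Squalene epoxidase (Sqle) stood at -0.84 in HRAS_MEL and 0.72 in D6_MEL, and Idi1, Lss, Mvd and Msmo1 were lower at -1.55, -1.48, -1.25 and -1.12. The probes of Msmo1 gave -0.41 and -1.84. Srebf1 and Scap, which regulate lipid synthesis genes, were within 2-fold at 0.85 and 0.60. The sterol response core CACCCCAC, searched on both strands, was in 1 of the 10 promoters found, that of Hmgcs1, against 3.9% of measured genes. The full motif, the same core with AT before it, was in 0 of 10, against 0.0524%. Fatty acid synthesis genes had 1 of 18 lower, the ligase Acsl4 at -1.89 over probes of -1.21 and -2.57, and 0 higher.

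Glucose uptake and glycolysis genes had 4 of 24 lower and 1 higher. Beside Slc2a3, the lower ones were Pgk1 at -1.63, Bpgm at -1.40 and pyruvate kinase (Pkm) at -1.39 over probes of -1.31 and -1.46. Aldoa was higher by 1.68. Of 115 solute carriers, 10 were lower and 5 higher, among them the nucleoside transporter Slc29a1, at 1.14 in HRAS_MEL and -2.89 in D6_MEL. Subunits of oxidative phosphorylation had 1 of 56 higher and 0 lower (median 0.30), and cytosolic ribosomal protein genes a median of 0.24 with 2 of 71 higher and 0 lower. Rpl15, among those, rests on 1 of its 3 probes, which gave 4.03, 0.16 and -0.12.

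Genes of the actin cytoskeleton went both ways, 8 of 61 higher and 7 lower. Myadm, a membrane protein that organises cortical actin, stood at 0.59 in HRAS_MEL and -4.53 in D6_MEL. The LIM domain proteins Crip2 and Crip1 were higher by 5.12 and 2.68, tropomyosin Tpm2 by 1.90 over probes of 1.81 and 2.0, and Fhl2 by 1.64. Crip2 was near the HRAS_MEL level of 0.58 in NRAS_MEL too, at 0.04, against -4.54 in D6_MEL. Lower were the actin-sequestering thymosins Tmsb4x and Tmsb10, at -2.56 and -1.22, Tagln2 at -2.24 and the nonmuscle myosin Myh10 at -1.54.

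Replication and mitosis genes were seldom apart. Of 62 measured, 1 was higher and 3 lower: Mcm10, a replication initiation factor, at 3.23, and Mcm3, Rpa3 and Mcm2, at -1.21, -1.11 and -1.03. Of 29 cyclins, inhibitors and p53 targets, 5 were higher, among them Cdk8 at 3.27, Sesn1 at 1.54 and Rbl2 at 1.46, and 2 were lower, Ccnd1 and Ccne1, at -1.55 and -1.20. Heat shock proteins and chaperones had 3 of 64 higher and 4 lower. Hspb1, a small heat shock protein, stood at -1.44 in HRAS_MEL and -4.70 in D6_MEL. The chaperonin subunits Cct7 and Cct3 were lower at -1.35 over 4 probes and -1.13 over 5. Subunits Cct8, Cct5, Cct2 and Cct4 of the same complex were within 2-fold, at -0.76, -0.42, -0.17 and 0.04. Proteasome genes had 2 of 34 lower and 0 higher.

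Developmental transcription factors were higher in 7 of 48 cases and lower in 2. The forkhead factor Foxo3 and the Kruppel-like factor Klf9 were higher by 2.05 and 2.0, and Gata2 by 1.68 over probes of 1.29 and 2.07. Tcf4 was higher by 1.47 on both of its probes. Sox11, a factor of neural progenitors, was lower, at -2.16 in HRAS_MEL and 0.27 in D6_MEL, and Foxo1 was lower at -1.11. In the NOTCH pathway, 2 of 16 were higher and 3 lower: the ligand-like Dlk1 and the DNA-binding factor Rbpj, at 1.54, against Dtx1, Adam10 and the target gene Heyl, at -1.07.

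Genes measured by 3 or more probes, all of them at least 2-fold apart in 1 direction, are the differences that rest least on a single spot. Of the 481 genes with at least 3 probes, only 2 met this rule upward, H19 and Lrp1. Only 5 met it downward, Azin1, Cct7, Dclk2, Gpt2 and Pank3. Lrp1, an endocytic receptor for proteases and matrix proteins, stood at 0.92 in HRAS_MEL and -1.11 in D6_MEL, with probes at 1.0, 2.93 and 2.17. Azin1, which blocks the inhibitor of polyamine synthesis, stood at -0.80 in HRAS_MEL, the lowest array, and at 1.91 in D6_MEL, the highest. Pank3, an enzyme of coenzyme A synthesis, was lower at -1.85, and the microtubule-binding kinase Dclk2 at -1.49.

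**Figure D4:**
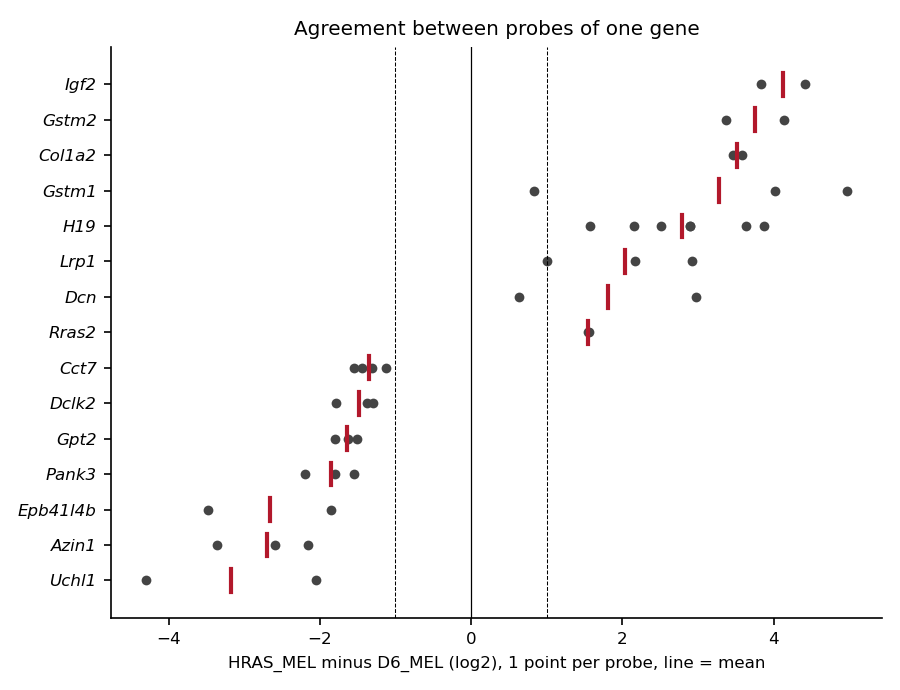
Differences between HRAS_MEL and D6_MEL of the single probes of 15 genes, on a log2 scale on the x axis, with 1 point a probe, a red line at the mean and dashed lines at 2-fold. The 7 probes of H19 all lie beyond 2-fold, whereas Gstm1 and Dcn each have a probe inside it.

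The place of each line among the 11 arrays differed between the higher and the lower genes. Of 362 genes at least 2-fold higher with a value on every array, HRAS_MEL was the highest of the 11 in 130, or 35.9%, and D6_MEL the lowest in 54, or 14.9%. Over all 7035 genes these positions were held by 6.1% and 5.39%. Of 410 genes at least 2-fold lower, HRAS_MEL was the lowest array in 103, or 25.1%, and D6_MEL the highest in 114, or 27.8%, against 7.49% and 4.83% over all genes. A gene chosen for its difference tends to put either array at an end, so the shares are a description. Among the higher genes, HRAS_MEL lay above every other array by at least 2 on the log2 scale for Apcdd1, Igf2, Cercam, Trpv2 and Pwwp3b.

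Differences also varied with chromosome. Of the 7007 genes placed by the RefSeq table of assembly GRCm38.p6, 51.1% were below 0, against 67.5% on chromosome 6, 67% on chromosome 4, 64.9% on chromosome 15 and 61.6% on chromosome 3. The median differences were -0.25 over 345 genes of chromosome 6, -0.24 over 454 of chromosome 4 and -0.18 over 282 of chromosome 15. The other 17 chromosomes lay between -0.13, for chromosome 3, and 0.11. With the genes of chromosomes 3, 4, 6 and 15 each cut along the chromosome into 3 runs of like size, all runs had a median below 0. On chromosome 6, 41 genes were at least 2-fold lower and 16 higher, and on chromosome 4, 46 were lower and 14 higher. The X chromosome had the highest share of genes at least 2-fold lower, 13.7% (29 of 211), against 11.9% on chromosome 6 and 10.1% on chromosome 4. Of its 3 runs of genes only the last had a median well below 0, at -0.38, beside -0.04 and 0.03.

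Median levels of these chromosomes were also compared over the 11 arrays. On chromosome 4 the median level was -0.28 in HRAS_MEL and -0.04 in D6_MEL, and -0.21 to 0.02 on the other 9 arrays. On chromosome 6 it was -0.11 in HRAS_MEL and 0.17 in D6_MEL, and -0.08 to 0.21 on the other 9. HRAS_MEL was thus the lowest of the 11 arrays on both chromosomes. On chromosome 6 it was close to the arrays labelled Lung, at -0.08, and Liver, at -0.06, and to NRAS_MEL, at -0.03. There D6_MEL lay near the upper end of the range. On chromosome 15 the median level was -0.11 in HRAS_MEL and 0.15 in D6_MEL, and -0.13 to 0.19 on the other 9. The array labelled Heart stood at 0.17 on chromosome 6 and 0.19 on chromosome 15. Against that array the medians of HRAS_MEL were -0.25 on chromosome 4, -0.30 on chromosome 6 and -0.24 on chromosome 15, while that of chromosome 3 was 0.01. Genes described above that lie on chromosome 6 include Mest, Copg2, Asns, Gars, Cct7, Bpgm and Cxcl12, all lower, and C1ra, C1s1 and Col1a2, all higher. These are examples and not a full list. The copy number of these chromosomes was not measured and its part was not tested.

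**Figure D5:**
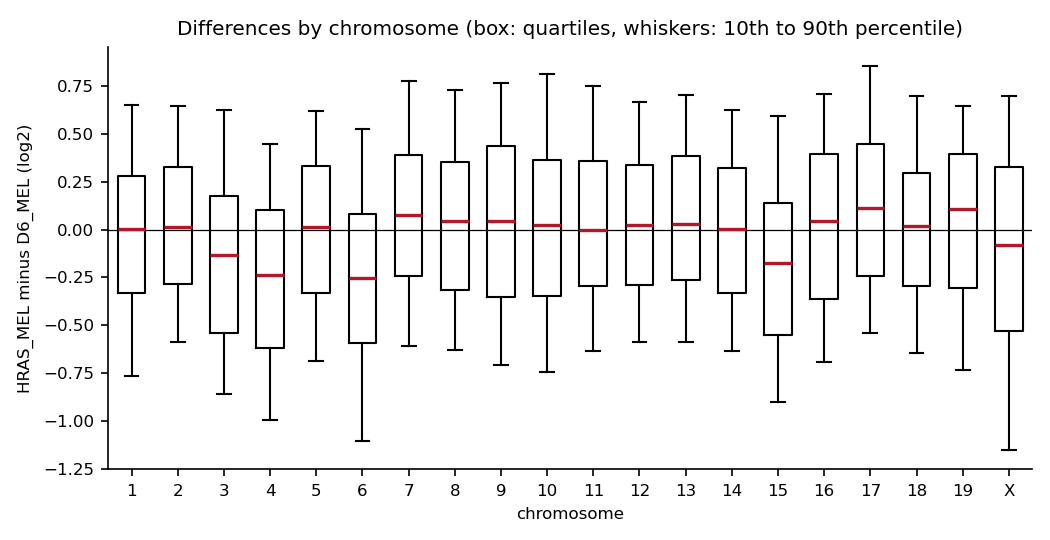
Differences between HRAS_MEL and D6_MEL by chromosome, on a log2 scale on the y axis, for the 7007 genes placed. Red lines are medians, boxes quartiles and whiskers the 10th to 90th percentile of genes. Chromosomes 4, 6 and 15 have the lowest medians, at -0.24, -0.25 and -0.18.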

How the data were processed

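The authors deposited 1 table of log ratios for the 11 two-colour cDNA arrays, taken here as log2 values, for 15247 probes; HRAS_MEL had 15208 values and D6_MEL 15198. Background correction, normalization within arrays and the log base are stated neither in the labels nor in the table. The deposited columns of HRAS_MEL and D6_MEL had medians of -0.01 and -0.03 and SDs of 0.879 and 0.882, so they were centred or nearly so. Signal intensities were not analysed, so signal over background is unknown and the single array per line limits the precision.

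Signs were turned, the median of each array was subtracted, and probes sharing 1 symbol were averaged. The platform annotation gave 1 symbol to 9600 probes and several to 214, and lacked 5433. A RefSeq gene table (GRCm38.p6) held the gene numbers of 9492 of the 9600 and changed 0 symbols. Differences were computed in Python 3.11.15 with pandas 2.3.3 and numpy 2.4.6 and drawn with matplotlib 3.10.9. With 1 array per line there is no test and no p-value. The counting of 2-fold genes was tested on simulated data, with shifts past 2-fold and noise of SD 0.29, the median SD between probes. The root mean square of the SDs between probes was larger, at 0.51. The simulation therefore checks the counting and not the error of these arrays.

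Named genes were drawn from the 25 highest and 25 lowest genes, and from the 8 largest differences of each list and its defining markers. Genes with 3 or more probes all 2-fold apart and RAS genes were also drawn on. Not every gene that these rules cover is named. Lmbr1, Tomm7, Cercam, Trpv2, Pwwp3b and Rpl15, as arrays or probes standing apart, were named after their values were seen. So were C1s1, from outside the complement list, and some members within 2-fold. The comparison and the lists were chosen with earlier results of these data known. A further gene list is not reported here. Alternatives changed the probe rule, centring, scaling, log base, comparison array and fold.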

Additional observations from a re-analysis of the deposited data

How the results depend on the processing

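The counts of 370 higher and 418 lower genes stayed within 1.5 times under either rule of 1 probe per gene, without centring, with quantile normalization, with arrays scaled to one median absolute deviation and when D6_MEL was replaced by the array labelled Heart. The array labelled Heart was chosen for its closeness to D6_MEL, so like counts with it were likely from the start. The counts were 55 and 83 over genes with several probes of one sign, which leaves fewer genes to count. They were 719 and 820 with values read as natural logarithms, and 159 and 130 at 3-fold, a threshold chosen after seeing the data. Higher genes made up 44.4% to 47.8% of those 2-fold apart under the scalings, probe rules and the other comparison array, and 39.9% over genes with several probes of one sign.

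When D6_MEL was replaced by the array labelled Heart, list medians were -0.23 for neural crest and glia, -1.34 for cholesterol synthesis and -0.53 for the amino acid response. The 3 haemoglobin chains had a median of 1.17 against D6_MEL and -0.22 against the array labelled Heart. The collagen median was -0.65 with the probe of largest SD. Over genes with several probes of one sign, a smaller set of members, the median was -0.48 for matrix glycoproteins and proteoglycans, turning its direction. It was -0.19 for the amino acid response. The cause of these shifts was not tested. Of the 50 highest and lowest genes, 0 turned direction under any alternative run; their sizes moved by more than the probe spread in 29 with quantile normalization, 46 with scaling and 28 with the array labelled Heart. No paired analysis was possible because each line had 1 array.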

Other observations

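Of the 3 haemoglobin chains measured, 2 were at least 2-fold higher and 1 was within 2-fold. The embryonic chains Hba-x and Hbb-y stood at -1.43 and -2.18 in HRAS_MEL and at -3.16 and -3.35 in D6_MEL, the lowest of the 11 arrays for both. The adult chain Hbb-b1 stood at -8.26 in HRAS_MEL and -7.62 in D6_MEL. The 4 probes of Hbb-y differed by 0.83, 1.31, 1.85 and 0.68.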
